A study of Monodelphis domestica with 7 samples.

Results

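HOXB1, HOXB3 and HOXD4 were followed through the RNA of the neonatal opossum spinal cord, before and after a complete transection. The rows of these 3 genes were taken by identifier from the 21314 genes counted, HOXB1 as ENSMODG00000012351, HOXB3 as ENSMODG00000012344 and HOXD4 as ENSMODG00000009598. All 3 passed the low-count filter, which kept 13534 genes. HOXB3 was the clearest of them, with 59 counts in the older control cord, 89 and 245 in the older injured cords and 429 to 497 in the 4 younger libraries. After injury at the younger age HOXB3 stood at 0.983 times its control in run 1 and 1.03 times in run 2. A fit over all libraries put its log2 change at 0.00 ± 0.36 (SE). At the older age all 3 genes had more RNA in both injured libraries than in the only control library, a difference that was called in some fits and not in others.

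HOX genes encode homeodomain transcription factors and lie in clusters, in which the order of the genes along the chromosome follows the order of their expression along the body axis. HOXB1, HOXB3 and HOXD4 belong to the anterior end of that order and are best known for giving segments of the hindbrain and the upper spinal cord their identity. Retinoic acid is a classical inducer of these genes, and their products act on DNA together with PBX and MEIS proteins. HOXB1 is known above all from the hindbrain segment that gives rise to the facial motor nucleus, HOXB3 from the posterior hindbrain and cervical cord, and HOXD4 from the border of hindbrain and cervical cord and from the uppermost vertebrae. In the RefSeq annotation of the opossum assembly mMonDom1.pri, the nearest protein-coding neighbours of HOXB1 are SKAP1 and HOXB2, those of HOXB3 are HOXB2 and HOXB4, and those of HOXD4 are HOXD8 and HOXD3. Coordinates are not given, because the counts were made on another assembly.

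The tissue was the cord segment rostral to a cut at thoracic level T10 of the gray short-tailed opossum, which is born with an immature nervous system. Pups were operated at postnatal day 7 (P7) or 28 (P28), and the segment was collected 24 h later. The 4 groups were uninjured P8 controls (2 libraries), P7+24h injured (2), uninjured P29 controls (1) and P28+24h injured (2), and each library was made from a pool of 2 pups. P8 controls came from litters other than those operated. Injuries at P28 were usually made on part of a litter, whose other pups were anaesthetised and served as P29 controls. Which litters entered each pool was not given, and pups of both sexes were used. Where the rostral end of the segment lay was not given in the sources used here, which bears on genes whose level changes along the axis. The pools of a group came from separately collected animals sequenced in separate runs, so collection and run cannot be told apart, and the P29 control analysed here is from run 1.

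Library totals were between 3332232 and 6256074 counts, and every run 2 library was deeper than every run 1 library. Levels are given as counts and as CPM, in which counts are set to a common library size with TMM factors, and 3 counts, taken as the floor, correspond to 0.449 to 1.06 CPM. GFAP, a marker of astrocytes, and OLIG2, a marker of the oligodendrocyte lineage, were detected in all 7 libraries. In CPM without TMM scaling, as for all markers here, GFAP was 277 to 1064 in the libraries of P8 age, 1366 in the P29 control and 1236 and 2394 for P28+24h, and OLIG2 was 15.8 to 46.7, 155, and 71.7 and 219. Gene lengths were not at hand, so levels are compared between libraries and never between genes. In bulk tissue, fewer cells that express a gene and less RNA per cell cannot be told apart.

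Counts of HOXB3 (run 1, then run 2) were 463 and 437 for P8 controls, 429 and 497 for P7+24h, 59 for the P29 control and 89 and 245 for P28+24h. In CPM these were 115 and 72.0, 113 and 74.3, 17.0, and 31.4 and 39.7. The libraries of the 2 ages did not overlap, and within the older age the control lay below both injured libraries. An order of this kind, with the P29 control lowest and both P28+24h libraries below all 4 libraries of P8 age, was found in 5.09% of the tested genes. The group means were 93.3 ± 30.1 CPM (SD, n = 2) in P8 controls, 93.5 ± 27.1 (SD, n = 2) in P7+24h and 35.6 ± 5.87 (SD, n = 2) in P28+24h injured cords, and with 1 library a run each SD also holds the difference between the runs.

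Those of HOXD4 were 165 and 97 for P8 controls, 132 and 94 for P7+24h, 38 for the P29 control and 59 and 122 for P28+24h. In CPM these were 40.8 and 16.0, 34.7 and 14.1, 10.9, and 20.8 and 19.8. The P29 control was again the lowest library, but both P28+24h libraries lay inside the range of the P8 controls and inside that of the P7+24h cords. The separation by age seen for HOXB3 was therefore absent from HOXD4 once the cords were injured, and at P8 age the gap between runs was wider than that between control and injured cords of the same run.

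HOXB1 was close to the detection limit throughout. Its counts were 10 and 3 for P8 controls, 11 and 10 for P7+24h, 1 for the P29 control and 10 and 9 for P28+24h, or 2.48 and 0.494, 2.89 and 1.50, 0.287, and 3.53 and 1.46 CPM. The P29 control and the run 2 P8 control were at or under the floor of 3 counts. The remaining 5 libraries held 9 to 11 counts each, so their order in CPM largely followed the size of the libraries. The P29 control was the lowest of the 7 libraries for all 3 genes, as it was for 12.2% of the genes tested.

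**Figure D1:**
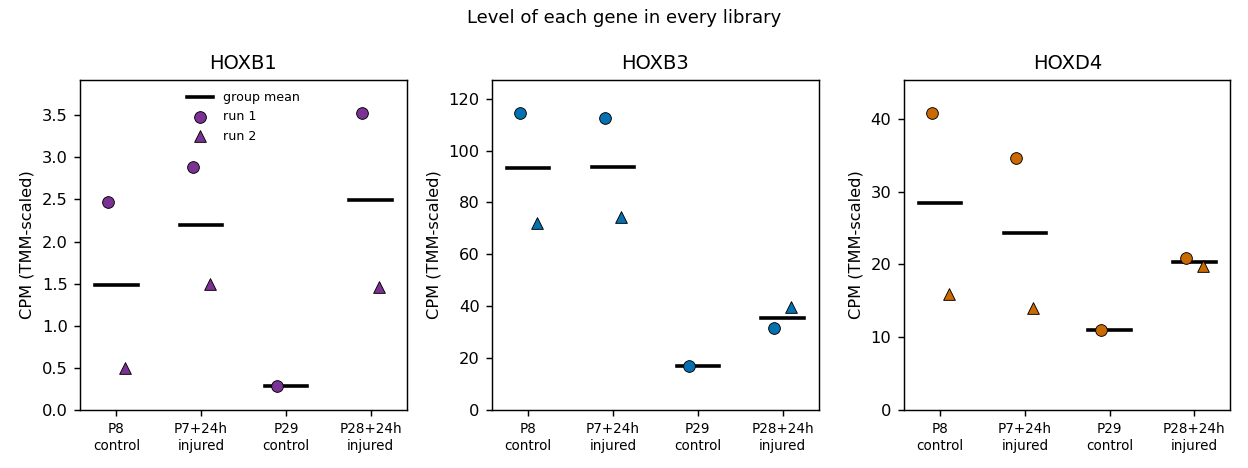
CPM after TMM scaling (vertical axis, starting at 0 in each panel) of HOXB1, HOXB3 and HOXD4 in every library of the 4 groups, with circles for run 1, triangles for run 2 and bars for group means (the P29 control is 1 library). The P29 control is lowest in each panel, HOXB3 lies at 72.0 to 115 CPM at P8 age and at 17.0 to 39.7 CPM at P29 age, and run 2 lies below run 1 in every group with both runs except for HOXB3 at P28+24h.

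The groups were compared in a fit over all 7 libraries with edgeR's quasi-likelihood test and Benjamini-Hochberg adjustment over the 13534 genes, and calling a gene took a fold of 2 or more with its adjusted p below 0.05. A second fit added the sequencing run as a block. The run is the difference between libraries of a group that the labels give, and the change from run 1 to run 2 in one group correlated with that in another at 0.70 to 0.80 across genes, which are not independent replicates. Both fits are given below. With 1 P29 control, the spread of that group was taken from the other groups.

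The first comparison asked whether transection at P7, an age at which axons still grow across a cut, altered the 3 genes within 24 h. HOXB3 was level with its control in either run. The P7+24h library had 0.983 times the P8 control's CPM in run 1 (exact 95% interval 0.860 to 1.12) and 1.03 times in run 2 (0.906 to 1.18). These intervals, and those below, cover counting error in 2 libraries and not the spread between animals, and sequenced reads without molecular identifiers are not independent molecules. HOXD4 stood at 0.849 (0.670 to 1.07) and 0.879 (0.655 to 1.18) of its control, slightly lower in both runs but within counting error. HOXB1 stood at 1.17 (0.450 to 3.07) and 3.03 (0.779 to 17.1), with intervals too wide at this depth to show a difference of that size.

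In edgeR's quasi-likelihood test the log2 changes at P7+24h were 0.00 ± 0.36 (SE) for HOXB3, −0.23 ± 0.60 for HOXD4 and 0.59 ± 0.94 for HOXB1, each with an adjusted p of 1. The run block narrowed the errors to 0.22, 0.28 and 0.58 around 0.01, −0.22 and 0.71, again with adjusted p of 1 in edgeR. None of the 3 was called, against 0% of all genes without the block and 0.0148% with it. The test without the block had 69 genes at an unadjusted p under 0.05, and DESeq2 called 2 genes and edgeR's exact test 5, none of them among the 3.

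The same question was put at P28, an age at which axons no longer cross the cut. Both injured libraries exceeded the control for every gene. The HOXB3 level was 1.85 times the control in run 1 (exact 95% interval 1.32 to 2.62) and 2.34 times when the run 2 injured library was set against the run 1 control (1.76 to 3.17). HOXD4 was 1.91 times (1.25 to 2.95) and 1.81 times (1.25 to 2.68) the control. HOXB1 was 12.3 times (1.75 to 533) and 5.08 times (0.704 to 223), ratios that rest on 1 count in the control. With the counts of both injured libraries added, the ratios were 2.19 (1.66 to 2.94), 1.84 (1.29 to 2.69) and 7.35 (1.17 to 305) for HOXB3, HOXD4 and HOXB1. Each interval of the summed counts lay above 1, and only the second ratio of HOXB1 did not exceed counting error.

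**Figure D2:**
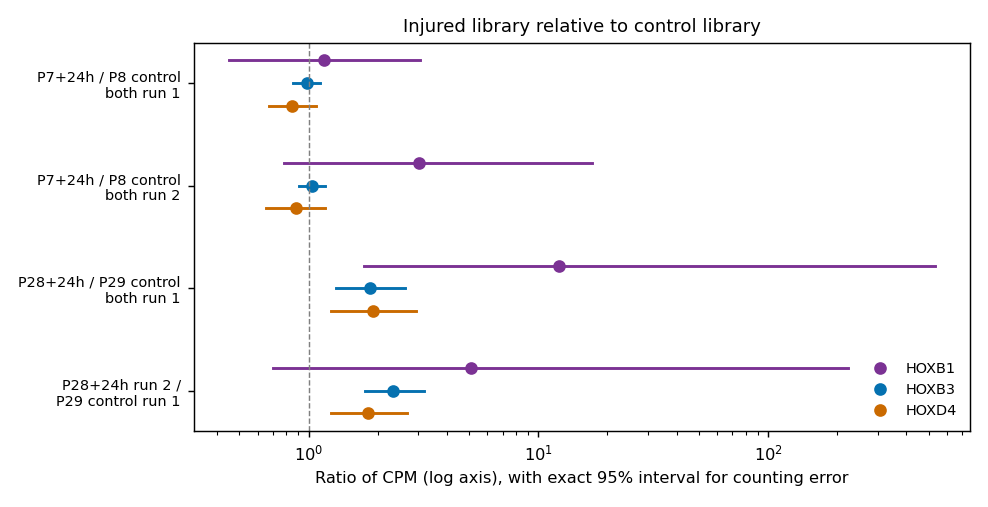
Ratio of CPM between single injured and control libraries (horizontal log axis) with exact 95% intervals for counting error, for the P7+24h pairs of each run and for both P28+24h libraries against the run 1 P29 control, and a dashed line at 1. HOXB3 lies at 0.983 and 1.03 after injury at P7 and at 1.85 and 2.34 after injury at P28, and the intervals of HOXB1 reach 533.

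Set against all tested genes, the run 1 log2 difference between P28+24h and P29 control was higher than in 91.3% of genes for HOXB3, 92.1% for HOXD4 and 99.5% for HOXB1. These 3 genes stand on the study's list of genes changed at P28+24h, which was drawn up from this series, so their direction here is not independent evidence. The study used the exact test of edgeR 2.6.12 and gives larger folds for all 3. The exact test run here, with edgeR 4.0.16, gave folds of 2.10 for HOXB3, 1.86 for HOXD4 and 7.63 for HOXB1. It did not call them. In the quasi-likelihood test without the block the log2 changes were 1.07 ± 0.48 (SE) for HOXB3, 0.89 ± 0.79 for HOXD4 and 2.93 ± 1.66 for HOXB1, and none was called (edgeR adjusted p of 1 for each). That test called 0% of genes at P28+24h and had 157 at an unadjusted p under 0.05, while DESeq2 called 0 genes and edgeR's exact test 3, and both gave the 3 HOX genes an adjusted p of 1.

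With the run block the changes were 1.31 ± 0.36, 1.44 ± 0.44 and 3.55 ± 1.15, and the quasi-likelihood test in edgeR gave adjusted p of 0.115, 0.145 and 0.151, where 0.584% of genes were called as higher. The block carries the run change of the other groups to the P29 control, which has no run 2 library here. As folds, the block values of HOXB3 (2.48) and HOXD4 (2.71) exceeded both library ratios (1.85 and 2.34, and 1.91 and 1.81). The run change of these genes differed between the ages, as given below. The likelihood ratio test on the same block, which allows less for the uncertainty of the spread, called all 3, with adjusted p of 0.0180, 0.0392 and 0.0250 in edgeR, where 2.61% of genes were called as higher. A fit with a separate run effect for each age rests on the run 1 pair alone at P28 and had 1 residual degree of freedom. It gave 0.89 ± 0.27 for HOXB3, 0.93 ± 0.32 for HOXD4 and 3.50 ± 1.35 for HOXB1, with adjusted p of 0.00651, 0.0233 and 0.0367 in edgeR, and of these HOXB1 alone also reached a fold of 2. In that fit 21.7% of all genes passed the adjusted p alone, and 4.09% were called as higher. The call at P28 thus changed with the test and with the treatment of the run. In the quasi-likelihood fit with the block, the size of the HOXB3 change also moved with single libraries. It was 1.19 to 1.21 without any one of the libraries of P8 age. It was 1.86 without the run 1 P28+24h library and 0.83 without the run 2 P28+24h library. Each of these fits leaves 1 library in a group and 1 residual degree of freedom, and called more genes than the full block fit. Without the run 1 P28+24h library, the older age had its control in run 1 and its injured cords in run 2. Injury and run could then be told apart only through the run change at P8 age. Between those libraries the log2 difference of HOXB3 was 1.21.

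Markers of other cells differed between the same libraries. The summed CPM of the 6 of 16 skeletal muscle markers with an identifier was 8.38 to 17.7 at P8 age, 9.36 in the P29 control, in which TRDN was at 0, and 126 and 47.5 in the P28+24h libraries. For microglia and macrophages (6 of 9 markers) it was 27.6 and 31.4 in P8 controls, of which the run 1 library had TREM2 at 0, 110 and 125 at P7+24h, 112 in the P29 control and 360 and 298 at P28+24h. Erythroid markers (4 of 8) were 201 in the P29 control and 431 and 143 at P28+24h, and were higher in run 1 than in run 2 in every group with both runs. The part of these in the HOX results was not tested. No marker of meninges, forebrain, midbrain or hindbrain had an identifier, so brainstem tissue in a segment was not looked for.

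Maturation of the uninjured cord was compared between the P29 and P8 controls. This comparison shares the P29 library with the one above. HOXB3 was 6.76-fold lower at P29 than in the run 1 P8 control (exact 95% interval 5.15 to 9.02) and 4.25-fold lower than in the run 2 P8 control (3.23 to 5.67). HOXD4 was 3.74-fold lower than in run 1 (2.62 to 5.47), but its ratio to the run 2 P8 control was 0.683 with an interval of 0.457 to 1.00. HOXB1 had ratios of 0.116 (0.00267 to 0.816) and 0.581 (0.0111 to 7.24). A lower level at P29 was thus beyond counting error against both P8 controls for HOXB3 and against the P8 control of the same run for HOXD4 and HOXB1.

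Without the block, none of these passed the test. The log2 changes were −2.46 ± 0.51 (SE) for HOXB3, −1.37 ± 0.80 for HOXD4 and −2.19 ± 1.72 for HOXB1, and the quasi-likelihood test in edgeR gave adjusted p of 0.0804, 0.411 and 0.510, where 0.0739% of genes were called as lower. For HOXB3 both DESeq2 (adjusted p = 0.00118) and edgeR's exact test (adjusted p = 0.00469) called the fall. With the run block HOXB3 fell by 2.61 ± 0.34 and HOXD4 fell by 1.72 ± 0.42 on the log2 scale, both called in edgeR with adjusted p of 0.000304 and 0.0115, and HOXB1 was not called at −2.71 ± 1.25 (adjusted p = 0.115). In that fit 8.89% of all genes were called as lower at P29 and 12.5% as higher. The P29 library also entered the study's choice of these genes, so its low values are not independent of that choice.

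**Figure D3:**
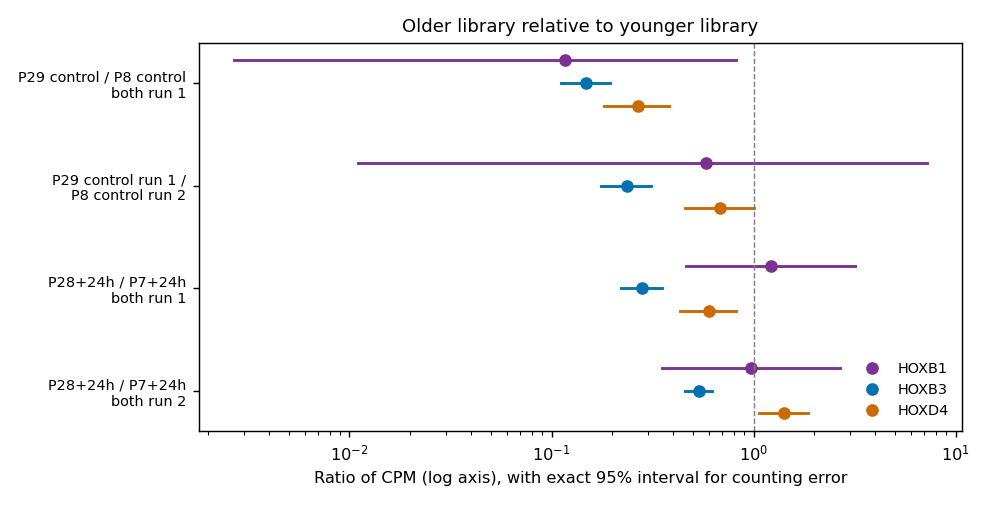
Ratio of CPM between an older and a younger library (horizontal log axis) with exact 95% intervals for counting error, for controls and for injured cords, and a dashed line at 1. HOXB3 is below 1 in all 4 ratios, from 0.148 to 0.535, while HOXD4 lies at 0.601 in run 1 and 1.41 in run 2 between the injured groups.

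Age was also compared among injured cords, P28+24h against P7+24h, which has both runs on either side and does not use the P29 control. HOXB3 was lower at the older age in either run, with ratios of 0.279 (0.219 to 0.351) in run 1 and 0.535 (0.457 to 0.624) in run 2. HOXD4 changed direction, at 0.601 (0.434 to 0.823) in run 1 and 1.41 (1.07 to 1.86) in run 2. HOXB1 had ratios of 1.22 (0.465 to 3.17) and 0.976 (0.351 to 2.67), with intervals too wide to show a difference of that size. The older cords therefore had less HOXB3 RNA whether they were injured or not, and only HOXB3 kept its direction in every pair of libraries of different age.

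The edgeR quasi-likelihood test gave HOXB3 a log2 change of −1.39 ± 0.37 (SE) and an adjusted p of 0.111 without the block, where 0.547% of genes were called as lower. With the block HOXB3 fell by 1.31 ± 0.23 and was called (adjusted p = 0.00122), where 8.8% of genes were. DESeq2 and edgeR's exact test, both without the block, also called it, with adjusted p of 0.0359 and 0.0344. HOXD4 and HOXB1 were not called in either fit, at −0.25 ± 0.60 and 0.15 ± 0.91 without the block and −0.06 ± 0.29 and 0.14 ± 0.54 with it, with edgeR adjusted p of 0.841 to 0.943.

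Whether the response to injury differed between the ages was tested as the difference of the log2 changes at P28+24h and P7+24h. It was 1.07 ± 0.60 (SE) for HOXB3, 1.12 ± 0.99 for HOXD4 and 2.33 ± 1.97 for HOXB1, each with an adjusted p of 1.00 in edgeR's quasi-likelihood test. That test called 0% of genes and had 59 at an unadjusted p under 0.05, and DESeq2 called 0. With the run block the differences were 1.30 ± 0.42, 1.66 ± 0.52 and 2.85 ± 1.39, with edgeR adjusted p of 0.342, 0.325 and 0.549, and 0.0369% of genes were called. A larger response at P28 than at P7 was therefore not shown for any of the 3 in these fits. With the run effect fitted separately at each age the differences were 0.88 ± 0.29, 1.14 ± 0.36 and 2.81 ± 1.59, and HOXD4 alone was called (edgeR adjusted p = 0.0191), in a fit with 1 residual degree of freedom that called 5.22% of all genes.

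**Figure D4:**
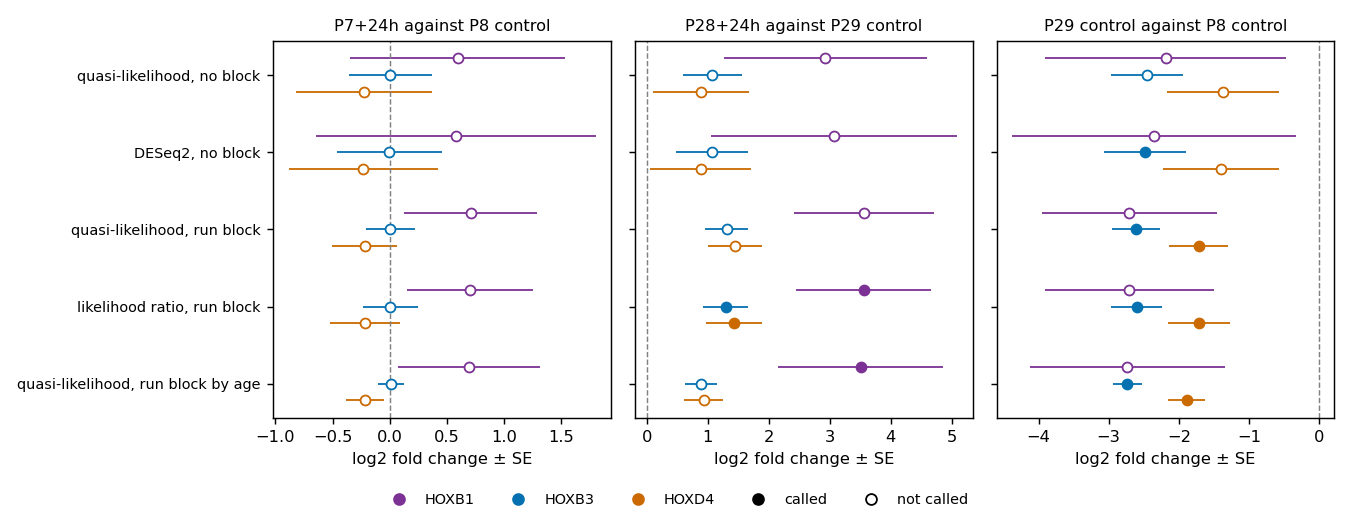
Log2 fold change ± SE (horizontal axis) of the 3 genes in 3 comparisons under 5 fits, with filled points for called genes and a dashed line at 0. At P7+24h HOXB3 stays at 0.00 to 0.01, at P28+24h all changes are positive and those of the likelihood ratio test are called, as is HOXB1 with the block by age, and between the controls all are negative and HOXB3 is called in all fits but the quasi-likelihood fit without the block.

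From run 1 to run 2, HOXB3 changed by −0.67, −0.60 and 0.33 log2 units in P8 controls, P7+24h and P28+24h injured cords. For HOXD4 these were −1.33, −1.28 and −0.07, and for HOXB1 −1.66, −0.79 and −1.07. HOXD4 and HOXB3 therefore had less RNA in run 2 at P8 age in control and injured cords alike. In the older injured cords HOXB3 was higher in run 2 and HOXD4 lower by 0.07, both within counting error (ratios 1.26, exact 95% interval 0.988 to 1.63, and 0.949, 0.690 to 1.32). Run 2 lay below run 1 in both groups of P8 age and above it at P28+24h for 5.71% of tested genes (773), HOXB3 among them. In edgeR's quasi-likelihood fit with the block the overall run change was −1.37 ± 0.46 (SE) for HOXB1 and called (adjusted p = 0.0298), −0.94 ± 0.24 for HOXD4 with an adjusted p of 0.00780 but a fold short of 2, and −0.36 ± 0.19 for HOXB3 (adjusted p = 0.128), beside 7.08% of genes called as lower in run 2.

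The run change was then allowed to differ with age. In edgeR's quasi-likelihood test its difference, older minus younger, was 1.25 ± 0.31 (SE) for HOXD4 (adjusted p = 0.00158) and 0.97 ± 0.24 for HOXB3 (adjusted p = 0.00160), and 0.15 ± 1.03 for HOXB1 (adjusted p = 0.949). HOXD4 reached the fold for a call, as did 2.26% of genes in the same direction. This test was added after the difference had been seen, its older age is 1 library in each run and its spread comes from the P8-age libraries alone, so it describes these libraries. The block of the fits above carries the run change of the other groups to the P29 control, for which no run 2 library was analysed here.

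**Figure D5:**
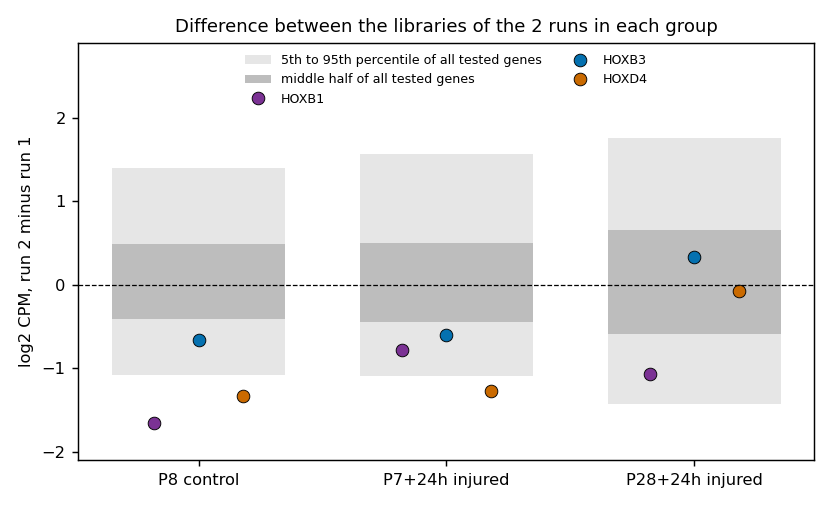
Difference in log2 CPM between the run 2 and run 1 library (vertical axis) of the 3 groups with both runs, with points for the HOX genes, a dark band for the middle 50% of all tested genes, a light band from their 5th to 95th percentile and a dashed line at 0. HOXD4 lies below the light band in both groups of P8 age, at −1.33 and −1.28, and inside the dark band at P28+24h, where HOXB3 is at 0.33.

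The 3 genes varied together only in part. Over the 7 libraries the log2 CPM of HOXB1 and HOXD4 had a Pearson correlation of 0.75, HOXB3 and HOXD4 one of 0.72 and HOXB1 and HOXB3 one of 0.46, given as descriptions over libraries that share runs and ages. A symbol could be given to 655 tested genes, the 3 HOX genes included, mostly genes the study listed as changed at P28+24h. The 5 closest to each HOX gene among them, other than itself, were named by the same measure. For HOXB3 they were the calcium channel subunit genes CACNA1G (r = 0.965) and CACNB3 (0.932), the fibrillin gene FBN3 (0.951), BEGAIN, which encodes a protein of the postsynaptic density (0.950), and TCERG1L (0.940). Among all 13533 other tested genes they ranked 35 (CACNA1G), 166 (CACNB3), 78 (FBN3), 82 (BEGAIN) and 122 (TCERG1L), so many genes without a symbol were closer. These had the same course as HOXB3, with CACNA1G at a mean of 158 CPM in P8 controls, 55.7 in the P29 control and 102 at P28+24h.

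For HOXD4 the closest were ANKRD10 (r = 0.995), which was the closest of all 13533 other tested genes, the tubulin gene TUBE1 (0.984), SPEG, a kinase gene of striated muscle (0.964), KIAA0895L (0.961) and FNBP4 (0.958). ANKRD10 had mean levels of 40.8 CPM in P8 controls, 17.8 in the P29 control and 30.2 at P28+24h. For HOXB1 they were the adaptor gene DOK3 (r = 0.978), also closest of all, the ciliary and planar polarity gene FUZ (0.970), the formin gene FMNL1 (0.969), SPNS2, a transporter gene for sphingosine phosphate (0.958), and WDR35, a gene of ciliary transport (0.945). Like HOXB1, DOK3 and FUZ were near the floor, with 0 and 0.287 CPM in the P29 control. DOK3 had means of 3.05 CPM in P8 controls and 4.81 at P28+24h. With the run means taken away, 3 of the 5 genes remained closest to HOXB1 and 2 of the 5 to HOXD4. The 5 genes named for HOXB3 then had correlations of 0.939 to 0.969 with it. Only run 1 holds a P29 control, so this step also takes away part of the difference between groups.

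The other genes of the system could not be placed. None of the 36 other HOX genes looked for, and none of the 9 cofactor, 18 retinoic acid pathway or 16 upstream regulator genes listed, had an identifier in the tables used here, and the RefSeq table, which names 39 HOX genes, pairs none with an Ensembl identifier. Whether neighbours such as HOXB2, HOXB4 or HOXD3 moved with the 3 genes was therefore not analysed here. For the same reason no promoter or protein sequence is shown. Use of strand in the counting was not stated, so reads from antisense transcripts in these clusters would not be told apart, and reads shared by related HOX genes could have been left out or counted on either.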

How the data were processed

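RNA from the rostral cord was sequenced as 100 bp single-end reads. The labels and the study's methods give different RNA integrity numbers, so RNA quality is not known here. The authors mapped these with Bowtie2 to the Ensembl release 69 genome and counted reads on nuclear genes with HTSeq in union mode, and the deposited values are raw counts per gene, 1 column per library. From these counts, TMM factors, filterByExpr (minimum count 10) and the quasi-likelihood test of edgeR 4.0.16 over the 4 groups were computed in R 4.3.3 with limma 3.58.1. Log2 CPM used a prior count of 2. Each SE of an edgeR fit is the absolute log2 change without edgeR's own prior count, divided by the square root of the test statistic. The changes shown hold that prior count, so at the low counts of HOXB1 the SE does not belong exactly to the change shown. The run block was an alternative, and the replicate number in the labels is the run, which pairs the libraries (correlations of run deviations 0.70, 0.74 and 0.80). Further alternatives were DESeq2 1.42.0, edgeR's exact and likelihood ratio tests, other scalings and filters, thinned counts and leaving out each library but the P29 control. The P28+24h against P7+24h comparison, the run comparison and the block by age were added after the data were seen. Scripts were tested on simulated data. The 3 genes and all lists were chosen with earlier results of these data known. Named genes are the 3 HOX genes and the 5 genes with a symbol most correlated with each. Symbols came from identifiers in the study's tables. The p-values measure the spread between these pools. Some marker genes are not reported here.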

Additional observations from a re-analysis of the deposited data

Results flagged for a closer look

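For HOXD4, both P7+24h libraries were below the P8 control of their run and both P28+24h libraries above the P29 control, and the difference of the log2 changes was 1.12 ± 0.99 (SE), with an adjusted p of 1.00 in edgeR's quasi-likelihood test and 0.325 with the run block, so it did not pass either test. The P7+24h change itself was not called and turned positive in 4 alternatives. The difference was called in the fit with the run block by age (1.14), which called 5.22% of all genes. In block fits with a library left out it was 1.80 without P8 control 2, 2.41 without P28+24h 1 and 1.10 without P28+24h 2. Each of these leaves 1 library in a group and 1 residual degree of freedom, and called more genes than the full block fit. The value without P28+24h 1 rests on the run change at P8 age, as the P29 control is from run 1 and the remaining injured library from run 2.

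The change from run 1 to run 2 differed between the ages by 0.97 for HOXB3 and 1.25 for HOXD4 on the log2 scale, older minus younger, in a test of that difference with edgeR's quasi-likelihood fit (adjusted p of 0.00160 and 0.00158), which had 1 residual degree of freedom, was added after the difference had been seen and has 1 library in each run at the older age.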

How the results depend on the processing

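The P29 control could not be left out, so each value that uses it rests on 1 library and each P28+24h value on the run assumption given above. Counts of 1 to 11 limit HOXB1. Each fit with the block and a library left out leaves 1 library in a group and 1 residual degree of freedom, which limits calls under these fits. The planned counts of other HOX genes called could not be made, and edgeR's exact test could not be run on the difference of the responses. Scaling by library size alone moved the median log2 change of all genes between the controls from −0.03 to −0.33. Of the changes of the 3 genes under the alternatives, 256 kept their direction and side of the threshold, 48 passed it in addition and 23 turned direction, and the cause was not tested.

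At P7+24h the values near 0 turned sign. For HOXB3 this was so with RLE factors (−0.0028), library size only (−0.029) and DESeq2 (−0.0028). Leaving out one library at a time gave HOXB3 −0.33 to 0.37, HOXD4 −1.01 to 0.60 and HOXB1 −0.21 to 2.05 without the block, and −0.22 to 0.27, −0.53 to 0.13 and 0.30 to 1.47 with it. HOXB3 turned negative without P8 control 2 (−0.29, or −0.22 with the block), P7+24h 1 (−0.33, −0.20), P28+24h 1 (−0.012, −0.0036) or P28+24h 2 (−0.011, −0.0023). HOXD4 turned positive without P8 control 1 (0.60, 0.13) or P7+24h 2 (0.29, 0.032), and HOXB1 negative without P8 control 2 (−0.21). None of these values was called in any alternative.

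At P28+24h the likelihood ratio test with the block called HOXB1 at 3.55, HOXB3 at 1.29 and HOXD4 at 1.43, and the block by age called HOXB1 at 3.50. Leaving out one library in the block fit gave HOXB1 3.42 to 3.69, HOXB3 0.83 to 1.86 and HOXD4 0.87 to 2.18. HOXB1 was 3.44 without P28+24h 2. HOXB3 was 1.19 to 1.21 without P8 control 1 or 2 or P7+24h 1 or 2, and 1.86 without P28+24h 1. HOXD4 was 1.30 without P8 control 1 or 2 and 2.18 without P28+24h 1. Without P28+24h 1, the older age has a run 1 control and a run 2 injured library, so those values rest on the run change at P8 age. Without the block no library changed the calls, with HOXB1 at 2.24 to 3.44, HOXB3 at 0.83 to 1.22 and HOXD4 at 0.85 to 0.89.

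Between the controls HOXB3 was also called with DESeq2 (−2.48), edgeR's exact test (−2.46), the block (−2.61), its likelihood ratio test (−2.60) and the block by age (−2.74), and in every block fit with a library left out (−2.76 to −2.27). HOXD4 was called with the block (−1.72), its likelihood ratio test (−1.71) and the block by age (−1.89), and with a library left out at −1.90 to −1.63, but not without P8 control 1 (−1.27, edgeR adjusted p = 0.0547). Without the block and a library the values were −2.76 to −2.09 for HOXB3 and −1.90 to −0.55 for HOXD4, none called. Among the injured cords HOXB3 was called with DESeq2 (−1.41), the exact test (−1.39), the block (−1.31), its likelihood ratio test (−1.32) and the block by age (−1.86), and with a library left out at −1.91 to −1.14, but not without P28+24h 1 (−0.88). HOXB1 there turned negative by library size (−0.067), and leaving out one library gave it −0.53 to 0.67 without the block and −0.24 to 0.47 with it. HOXD4 there ranged from −0.77 to 0.53 and, with the block, from −0.80 to 0.52. Those that turned HOXB1 were P7+24h 2 (−0.28) and P28+24h 1 (−0.53), and P7+24h 1 with the block (−0.24), and those that turned HOXD4 were P7+24h 1 (0.53, or 0.20 with the block) and, with the block, P28+24h 1 (0.52). For the difference of the responses the block by age called HOXD4 (1.14). In the block fit with a library left out HOXB3 ranged from 0.83 to 1.87, at 1.42 without P8 control 2 and 1.87 without P28+24h 1. HOXD4 ranged from 1.10 to 2.41, at 1.80 and 2.41 without these and 1.10 without P28+24h 2. The values without P28+24h 1 rest here too on the run change at P8 age. Without the block these ranges were 0.69 to 1.40 and 0.29 to 1.90, none called.

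The number of genes called changed by over 1.5 times in these cases. At P7+24h it was 0, and 2 with DESeq2, 5 with the exact test, 2 with the block with or without the fold threshold, 36 with its likelihood ratio test, 53 with the block by age and 7 to 51 with the block and a library left out. At P28+24h it was 0, and 3 with the exact test, 102 with the block, 104 without the fold threshold, 493 with its likelihood ratio test, 960 with the block by age and 300 to 960 with the block and a library left out. Between the controls it was 242, and 138 by library size, 855 with DESeq2, 972 with the exact test, 2893 with the block, 3992 without the fold threshold, 3242 with its likelihood ratio test, 3457 with the block by age, 0 to 139 with a library left out and 2257 to 3468 with that and the block. Among the injured cords it was 380, and 229, 1019, 1301, 3064, 5583, 3274, 3627, 0 to 88 and 2520 to 3634 in the same order. For the difference of the responses it was 0, and 5 with the block with or without the fold threshold, 200 with its likelihood ratio test, 707 with the block by age and 24 to 720 with the block and a library left out.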

Other observations

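The study placed the 3 HOX genes in a class of development and structure genes changed at P28+24h. For the other 25 genes of that class with an identifier, chosen by the study on these samples and so not independent evidence of direction, edgeR's quasi-likelihood fit with the run block called 4 as higher and 0 as lower at P28+24h, beside 0.584% of all genes called as higher, with a median log2 change of 1.17 against 0.00 over all genes. Without the block it called 0 of them in either direction, with a median of 0.79. At P7+24h the block fit called 0 of the 25, with a median of 0.05. Between P29 and P8 controls, which share the P29 library with the injury comparison, the block fit called 7 as higher and 9 as lower, beside 12.5% and 8.89% of all genes, with a median of −0.92 against −0.02 over all genes, while the fit without the block called 1 as higher and 0 as lower. In 7 of the 25 the P29 control was the lowest of the 7 libraries, as in all 3 HOX genes and in 12.2% of all genes.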
